A study of Mus musculus with 14 samples.

Results

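The keratin gene family was followed across the layers of the mouse esophagus and across age. Members were taken by name, as every gene whose symbol is Krt followed by a number and at most one letter, which gave 54 of the 55291 genes in the count files. The study sequenced bulk mRNA from peeled esophageal epithelium and from esophageal stroma, and each sample is 1 layer of 1 mouse. All mice are of strain C57BL/6 per the labels, which name no other genotype and no treatment. By the labels the groups differ by age and layer, and the form of the mouse code also divides the epithelial samples. Per the methods for epithelium-enriched tissue, the muscle layer was taken off with forceps. Epithelium came from 5 aged mice (O1, O2, O3, OF5 and OM8) and 4 young mice (Y1, Y3, YF5 and YM4), while stroma came from 3 of the aged animals, namely O1, O2 and O3, and from 2 of the young, namely Y1 and Y3. The series text gives 18 months or more for aged mice and 4 months or less for young mice. The labels give the sex of 3 mice (OM8, YF5 and YM4), and no result here was split by sex.

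Keratins are the intermediate filament proteins of epithelial cells. A filament is built from pairs of one acidic type I chain and one basic type II chain, so the genes are usually read in partners: Krt5 with Krt14 in the basal layer of stratified epithelia, Krt4 with Krt13 in the upper layers of internal mucosae such as the esophagus, Krt1 with Krt10 in the upper layers of cornified skin, and Krt8 with Krt18 in simple, single-layered epithelia. Krt6a, Krt6b, Krt16 and Krt17 are known as stress keratins because they rise in wounded or hyperproliferative skin, and a large group of further members builds hair, nail and the root sheath of the hair follicle.

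The members in the count files split into 28 type I and 26 type II genes. Krt85, a type II hair and nail keratin, was not among them. In the GENCODE M21 annotation of GRCm38, 27 type I genes lie on chr11:99232761-100269871, a stretch of 1037 kb, and the 26 type II genes lie on chr15:101347444-102032027, a stretch of 685 kb, together with Krt18, the one type I gene outside the chromosome 11 cluster. By function as listed here, 4 members are mucosal keratins (Krt4, Krt13, Krt76 and Krt78), 3 basal (Krt5, Krt14 and Krt15), 4 stress keratins, 5 epidermal differentiation keratins, 6 simple keratins (Krt7, Krt8, Krt18, Krt19, Krt20 and Krt23), 9 root sheath keratins, 15 hair and nail keratins, and 8 are grouped as other keratins.

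Total counts ran from 8217516 to 21867101 in epithelium and from 13257833 to 15644580 in stroma. The labelled layers held their markers: 6 of 6 squamous markers (Trp63, Dsg3, Dsc3, Perp, Cdh1 and Sfn) were higher in every epithelial library than in every stromal one, and their summed level was 950 to 1978 normalized counts in epithelium but 15.9 to 38.9 in stroma. The stroma was led by skeletal muscle, whose 12 markers summed to 42353 to 76538 there and to 169 to 1855 in epithelium, while fibroblast markers were present in both layers, at 280 to 632 in epithelium and 415 to 1031 in stroma. The epithelial libraries themselves fell apart by the form of the mouse code. In the 4 libraries coded with F or M (OF5, OM8, YF5 and YM4), protein-coding genes held 1041386 to 1432506 counts and the ribosomal RNA gene CT010467.1 held 63.9% to 73.9% of all counts, against 7959314 to 11051045 counts and 10.4% to 23.3% in the 5 epithelial libraries of mice with both layers. Normalized counts below are CPM (counts scaled to a common library size), with the library size adjusted by the trimmed mean of M-values (TMM), and 3 counts, the detection limit used here, correspond to 0.0872 to 1.25 normalized counts in epithelial and 0.115 to 0.175 in stromal libraries. The limits cover counting error alone, and the tests the spread between mice.

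The first question was which keratin genes the esophageal epithelium uses. Levels between genes were compared as normalized counts per kb of exon. Krt13 and Krt4, the mucosal partners, stood far above every other member, at 8676 ± 3587 and 8669 ± 3201 per kb (SD, n = 9). Together they held 93.0% ± 0.55 of the family's summed level per kb, with a range of 92.1% to 93.7% over the 9 mice. Behind them came Krt78, a further mucosal type II keratin, at 367 ± 109, then the basal keratins Krt15 at 333 ± 132, Krt5 at 281 ± 128 and Krt14 at 149 ± 68.7 per kb. Krt23, a type I keratin usually listed with the simple keratins, reached 47.3 ± 14.1 per kb, and Krt80, a type II keratin of differentiating epithelia, reached 34.5 ± 5.53. Krt1 at 14.8 ± 12.9, Krt10 at 14.6 ± 11.2, Krt6a at 11.3 ± 8.78 and the hair keratin Krt32 at 10.1 ± 3.47 per kb completed the 12 highest. The next members were Krt6b at 7.32, Krt17 at 2.95, Krt16 at 2.81 and the mucosal keratin Krt76 at 2.08 per kb.

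**Figure D1:**
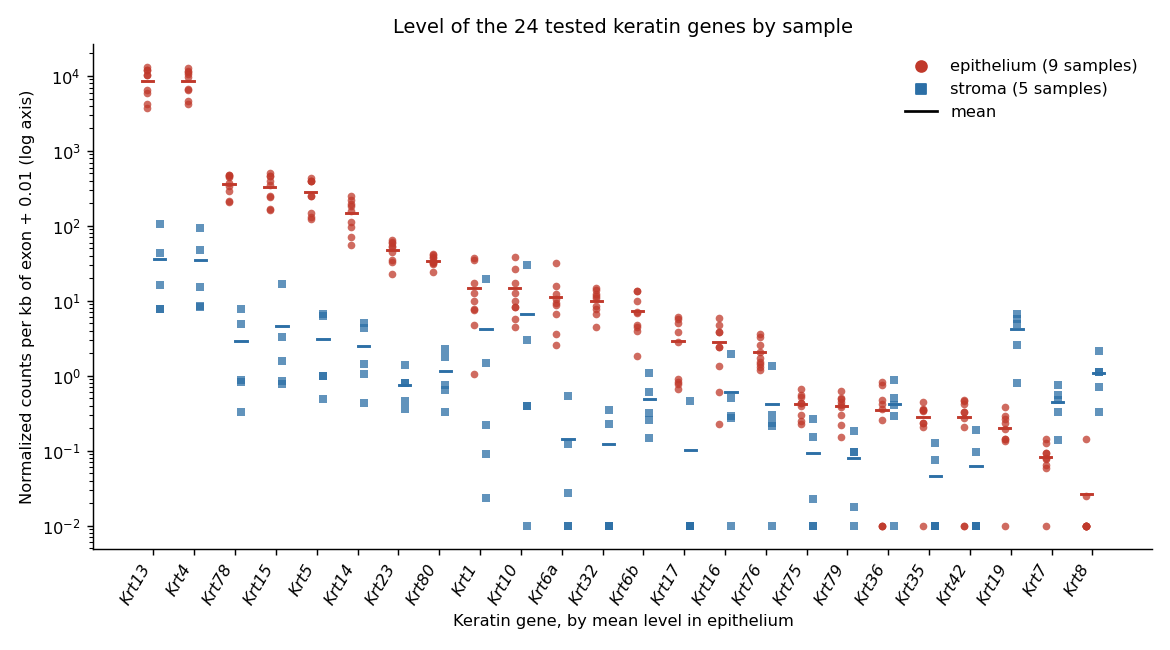
Level of the 24 keratin genes that passed the filter on low counts, as normalized counts per kb of exon plus 0.01 on a log axis, with 1 point per sample for epithelium (9 circles) and stroma (5 squares) and a bar at each mean. Krt13 and Krt4 lead in both layers, most members sit higher in epithelium, and Krt19, Krt7 and Krt8 at the right sit higher in stroma.

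Not every step in this order was larger than the spread between mice. Krt13 was above Krt4 in only 4 of 9 epithelial libraries, and the ratio of Krt13 to Krt4 averaged 0.982 ± 0.067. Which of the pair came first also turned on the gene length used, since with the length of the longest transcript the ratio averaged 1.08. Krt4 was above Krt78 in 9 of 9 libraries, by 4.52 ± 0.19 on the log2 scale, which was the widest gap in the order down to Krt75. Krt78 was above Krt15 in 7 of 9 libraries, by 0.19 ± 0.21, so these neighbours did not differ beyond their spread. Krt15 was above Krt5 and Krt5 above Krt14 in 9 of 9 libraries, by 0.29 ± 0.23 and 0.92 ± 0.22 on the log2 scale. Krt1 and Krt10, Krt10 and Krt6a, Krt6a and Krt32, and Krt17 and Krt16 changed places from mouse to mouse, with the member that had the higher mean leading in 2, 6, 5 and 5 of 9 libraries. The places of Krt1 and Krt80 beside Krt10 and Krt23 also depend on the gene length used. Joined exons hold 4415 bases for Krt1 and 6393 for Krt80, against 3133 and 3919 in the longest transcript. The 12 highest members were the same 12 with either gene length, with the counts scaled to protein-coding counts, in the 5 mice with both layers alone, and with any one mouse left out.

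The 2 filament types were nearly balanced. The summed level of type I members was 0.966 ± 0.065 times that of type II members in epithelium, from 0.879 to 1.05 over 9 mice, and averaged 1.06 with the length of the longest transcript. Within partners the balance differed. Krt14 stood at 0.535 ± 0.081 times its type II partner Krt5 (0.446 to 0.651), while Krt15, the other basal type I keratin, was above Krt5 in each of the 9 libraries, at up to 1.62 times its level. Krt10 stood at 0.754 to 1.19 times Krt1 in 8 of 9 libraries and at 4.37 times in YF5, the library with the lowest Krt1. The YF5 ratio rests on 23 counts of Krt10 and 11 of Krt1. With the length of the longest transcript the ratios of Krt10 to Krt1 would be lower. The ratio of Krt17 to Krt6b ran from 0.128 to 0.699 and that of Krt16 to Krt6a from 0.0618 to 0.389, so these stress keratins stayed below their type II partners in every library. By class, mucosal keratins held 95.1% ± 0.396 of the family's level in epithelium, basal keratins 4.06% ± 0.369, simple keratins 0.271% ± 0.064, epidermal differentiation keratins 0.18% ± 0.158, stress keratins 0.122% ± 0.0416, and hair and nail keratins 0.0624% ± 0.0147.

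The second question was how the layers differ. Keratin genes took 10.9% ± 4.77 of protein-coding counts in epithelium (n = 9) and 0.0732% ± 0.0732 in stroma (n = 5). The genes with the largest difference were the 2 most abundant ones. Krt4 ranged from 9003 to 27237 normalized counts in epithelium, with a median of 20572, and was 17.9, 201, 101, 32.7 and 17.5 in the stroma of O1, O2, O3, Y1 and Y3. Krt13 ranged from 6881 to 24029.8 in epithelium, with a median of 18613, and was 14.2, 194, 79.1, 29.7 and 14.3 in the same stromal libraries. Neither gene overlapped between the layers, and the O2 stroma held the highest stromal value of both. Krt4 was 250-fold higher in epithelium and Krt13 238-fold higher, with log2 fold changes of 7.96 ± 0.81 and 7.90 ± 0.84 (standard error) and adjusted p of 5.71e-08 and 1.08e-07 by the quasi-likelihood test of edgeR (Benjamini-Hochberg adjustment over all genes). The size of both folds depended on the O2 stroma, without which the log2 fold changes were 8.76 for Krt4 and 8.84 for Krt13. With mouse as a block they were 9.07 and 9.12. The 4 mice with F or M codes have epithelium but no stroma, so the folds over all 14 samples also hold the code form. Over the 10 samples of mice with both layers, without the block, the log2 fold changes were 8.35 for Krt4 and 8.32 for Krt13. In these bulk samples, fewer cells of a type and less RNA per cell cannot be told apart.

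A gene entered this test only if it passed the filter on low counts, which 24 of the 54 members did. Of these 24, 18 were higher in epithelium, 3 were lower and 3 were not called, where 26.1% of the 16791 genes tested were called higher, 30.1% lower and 56.2% in either direction. The median log2 fold change of the 24 was 3.40, beside -0.05 over all genes tested. These counts are descriptions, since a member could pass the filter through its higher layer alone. Only 8 members (Krt4, Krt5, Krt13, Krt14, Krt15, Krt23, Krt78 and Krt80) had at least 10 counts in every one of the 14 libraries. Of the 24, 12 had every epithelial value above every stromal value and 2 had every epithelial value below, where 14.4% and 16.9% of genes tested did. Over 17 other ways of running the comparison, 14 of the 18 higher calls and all 3 lower calls held in every run that tested the gene. The 4 that did not always hold were Krt16, Krt42, Krt75 and Krt79.

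**Figure D2:**
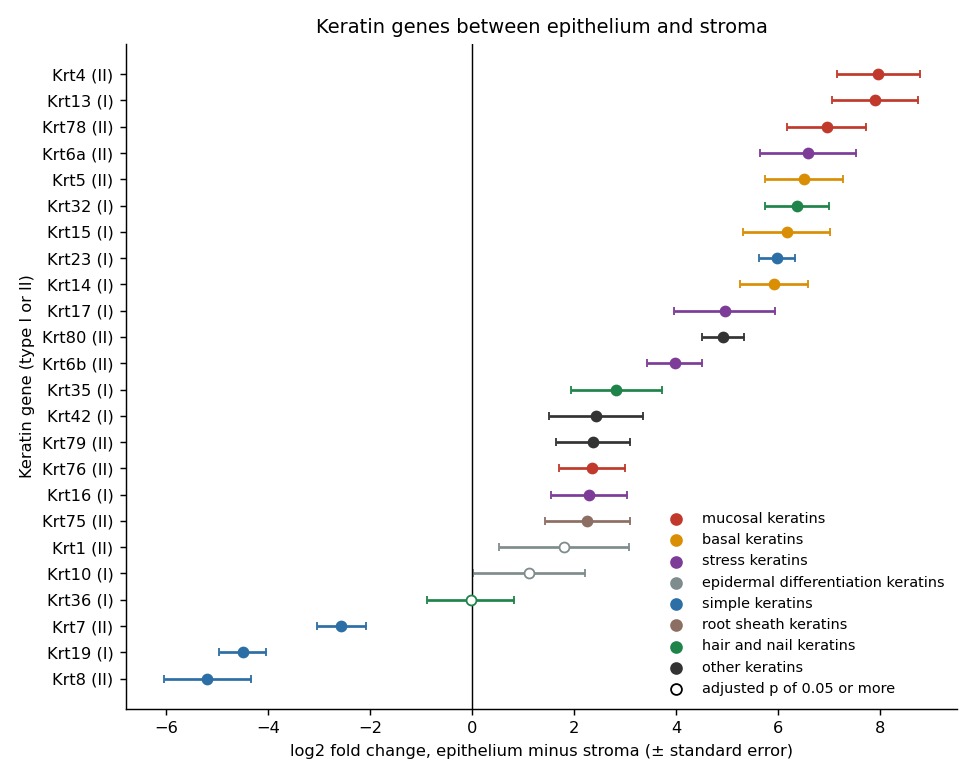
Log2 fold change of the 24 tested keratin genes between epithelium and stroma (x axis, epithelium minus stroma, bars of 1 standard error), coloured by class, with open circles where the adjusted p was 0.05 or more. The mucosal keratins Krt4 (7.96) and Krt13 (7.90) lead, and the simple keratins Krt7 (-2.56), Krt19 (-4.50) and Krt8 (-5.19) lie on the stromal side.

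All 4 mucosal keratins were higher in epithelium. Besides Krt4 and Krt13, Krt78 ran from 726 to 1659 normalized counts in epithelium, with a median of 1288, and was 1.11, 26.7, 17.02, 2.84 and 2.95 in the stroma of O1, O2, O3, Y1 and Y3. The layers did not overlap, and Krt78 was 124-fold higher in epithelium (log2 fold change 6.96 ± 0.77, edgeR adjusted p = 5.37e-07), or 7.70 on the log2 scale without the O2 stroma. Krt76, best known from the oral mucosa, was far lower, at 2.77 to 8.24 in epithelium and 0 to 3.08 in stroma. Its layers overlapped, and its log2 fold change was 2.36 ± 0.64 (edgeR adjusted p = 0.0042), and 3.56 without the O2 stroma.

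The 3 basal keratins, which mark the proliferative layer that rests on the basement membrane, were also all higher. Krt5 ran from 269 to 960.2 in epithelium, with a median of 555, and was 2.16, 14.5, 13.9, 2.17 and 1.06 in the stroma of O1, O2, O3, Y1 and Y3, a 91.1-fold difference (log2 fold change 6.51 ± 0.77, edgeR adjusted p = 2.08e-06). Its partner Krt14 ran from 97.5 to 437 in epithelium, with a median of 279.5, and was 2.51, 8.83, 7.65, 1.86 and 0.749 in the same stromal libraries, a 60.5-fold difference. Krt15 ran from 289.7 to 895 in epithelium, with a median of 615, and was 2.74, 5.79, 29.4, 1.5 and 1.34 in stroma, a 71.9-fold difference. None of the 3 overlapped between the layers. The stroma of O3 stood out for Krt15, at 3.56% of the epithelium of the same mouse, where Krt4 and Krt13 in that stroma were at 0.41% and 0.365%. Without mouse O3 the log2 fold change of Krt15 rose from 6.17 to 7.61. Over the 5 mice with both layers, stromal Krt4 was 0.0787% to 0.826% of the epithelial value and stromal Krt14 was 0.268% to 2.58%. The basal keratins made up 9.06% ± 6.38 of the family's level in stroma against 4.06% ± 0.369 in epithelium. That stromal mean was led by O3 (19.5%) and O1 (10.8%), while O2, Y1 and Y3 were at 5.22%, 5.33% and 4.40%.

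The 4 stress keratins were all called higher in epithelium, at levels far below the mucosal and basal members. Krt6a ran from 6.13 to 77.2 normalized counts in epithelium, with a median of 22.9, and was 1.28, 0.0411, 0, 0 and 0.276 in the stroma of O1, O2, O3, Y1 and Y3, with a log2 fold change of 6.59 ± 0.95 (edgeR adjusted p = 3.41e-05). Krt6b ran from 4.13 to 30.1 in epithelium and from 0.310 to 2.42 in stroma, with a log2 fold change of 3.97 ± 0.54. Of the stromal counts of Krt6a most were in O1, and its log2 fold change was 8.34 without that mouse and 5.90 without Y1. Both genes were above every stromal value in every epithelial library. Krt17, a stress keratin of appendages and wounds, ran from 1.03 to 9.32 in epithelium and was listed at 0 in 4 of 5 stromal libraries (log2 fold change 4.95 ± 0.99), so that without Y3 no stromal count is left and the size of the fold rests on that library. Krt16 overlapped, at 0.345 to 9.32 in epithelium and 0 to 3.02 in stroma (2.29 ± 0.75, adjusted p = 0.0144), its call was lost when O2, Y1 or Y3 was left out, and its log2 fold change was 3.29 without O3.

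Krt6a and Krt6b are near copies, which bears on how far their values can be told apart. Their coding sequences were 97.6% identical over 1662 aligned columns, and 45.7% of all 50-base windows of Krt6a transcripts and 50.1% of those of Krt6b also occurred in another gene. How reads that match several genes were counted is not given in the sources used here. The longest run shared without a difference was 280 bases, from base 34 of both coding sequences, and is shown because a read from it fits either gene (GENCODE M21 transcripts, 5′ to 3′).
Krt6a and Krt6b: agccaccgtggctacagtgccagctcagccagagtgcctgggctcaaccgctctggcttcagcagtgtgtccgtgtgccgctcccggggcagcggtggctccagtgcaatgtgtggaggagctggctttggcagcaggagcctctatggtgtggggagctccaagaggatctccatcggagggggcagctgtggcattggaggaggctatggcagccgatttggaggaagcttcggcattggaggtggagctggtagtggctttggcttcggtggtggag
Other tested members shared fewer windows, with 37.6% for Krt16 (most with Gm11597), 26.9% for Krt8 (all with the pseudogene Krt8-ps), 13.9% for Krt14 (most with Krt16) and 8.52% for Krt5 (most with Krt6a). Krt4, Krt13, Krt78, Krt1, Krt10, Krt19 and Krt23 shared none.

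Krt1 and Krt10, the partners of cornified skin, behaved unlike the other abundant members. In aged epithelium Krt1 was 34.1, 155, 76.6, 33.4 and 56.3 normalized counts in O1, O2, O3, OF5 and OM8. In young epithelium it was 21.2, 43.4, 4.58 and 163 in Y1, Y3, YF5 and YM4. The lowest and the highest epithelial value were thus both in young mice. Krt10 was 17.7, 55.8, 36.8, 17.6 and 26.9 in the aged mice and 12.1, 20.8, 9.58 and 81.4 in the young ones, listed in that order, so YF5 and YM4 were again the lowest and the highest. In stroma, Krt1 was 0.0583, 85.1, 6.58, 0.929 and 0.355 in O1, O2, O3, Y1 and Y3, and Krt10 was 0, 62.6, 6.39, 0.826 and 0.827. The O2 stroma was high for both, and reached into the epithelial range.

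**Figure D3:**
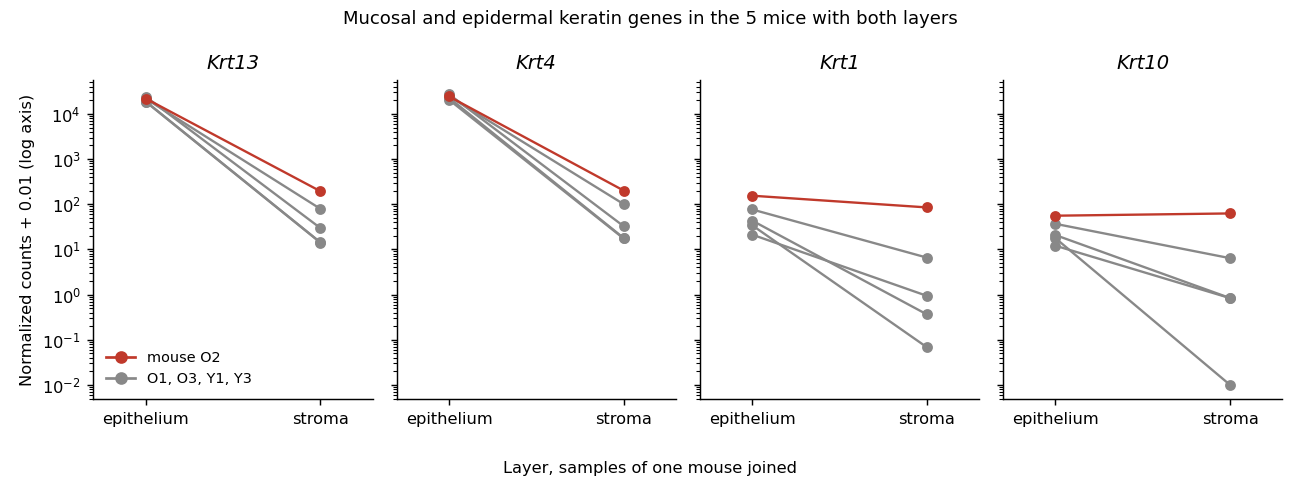
Normalized counts plus 0.01 (log axis) of Krt13, Krt4, Krt1 and Krt10 in the epithelium and the stroma of the 5 mice with both layers, with the samples of 1 mouse joined by a line and mouse O2 in red. Krt13 and Krt4 fall steeply in each mouse, whereas Krt1 and Krt10 of O2 stay at 55.1% and 112% of the epithelial value.

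Stromal Krt1 and Krt10 of O2 were 55.1% and 112% of the epithelium of the same mouse, where stromal Krt13 and Krt4 of O2 were 0.887% and 0.826%. Neither gene was called between the layers over all 14 samples, with log2 fold changes of 1.81 ± 1.27 and 1.12 ± 1.10 (edgeR adjusted p = 0.247 and 0.41). The missing calls depend on that library and on whether the layers are paired by mouse. Without the O2 stroma, the log2 fold changes were 4.99 and 3.88 (edgeR adjusted p = 0.00455 and 0.00465). With mouse as a block over the 5 mice with both layers, O2 included, they were 4.34 and 3.29 (edgeR adjusted p = 0.00531 and 0.0174). The same 10 samples without the block gave no call for either gene. The squamous markers summed to 38.9 in the O2 stroma and 32.6 in the O3 stroma, against 1887 and 1802 in the epithelium of these mice. The source of Krt1 and Krt10 in that stromal library was not tested.

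Among the remaining higher calls, Krt23 was 63.2-fold higher in epithelium, at 36.1 to 101 normalized counts (median 80.8) against 0.7, 1.23, 1.22, 2.17 and 0.552 in the stroma of O1, O2, O3, Y1 and Y3, and had the smallest adjusted p of the family (3.13e-11, edgeR, log2 fold change 5.98 ± 0.36). Krt80 ran from 153 to 268 in epithelium, with a median of 211, and was 14.4, 11.3, 4.05, 4.80 and 2.01 in the same stromal libraries, a 30.2-fold difference, and varied little between epithelial libraries. Neither overlapped. Krt79, known from the duct and funnel of the hair follicle, was near the detection limit at 0.687 to 2.92 in epithelium and 0 to 0.827 in stroma (log2 fold change 2.38 ± 0.72, edgeR adjusted p = 0.00857), with 3.14 without Y3, and with mouse as a block its log2 fold change was 2.70 with an adjusted p of 0.0867. Krt75 (2.26 ± 0.84), the 1 tested root sheath keratin, likewise had a larger estimate and no call with mouse as a block (3.10, adjusted p = 0.0835), with 3.33 without Y1, and lost its call without O1, O2 or O3 and also when the form of the mouse code was a covariate.

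Of the 15 hair and nail keratins, Krt32, a type I keratin of the hair cuticle, was among the 12 highest members in epithelium. It ran from 7.78 to 25.7 normalized counts there, with a median of 18.6, and was 0, 0.37, 0, 0 and 0.591 in the stroma of O1, O2, O3, Y1 and Y3. The layers did not overlap, and Krt32 was 83.0-fold higher in epithelium (log2 fold change 6.37 ± 0.63, edgeR adjusted p = 1.25e-07), with 7.28 on the log2 scale without Y3. Krt35 was at 0 to 1.03 in epithelium and 0 to 0.276 in stroma (2.83 ± 0.89, and 3.85 without Y3), and Krt36 was at 0 to 1.38 and 0 to 1.46 with no call (-0.02 ± 0.85). The other 12 hair and nail keratins did not pass the filter. The 58 keratin-associated protein genes (Krtap), which encode the matrix of the hair shaft and are not members, summed to 0.346 to 5.42 in epithelium and 1.03 to 4.49 in stroma, and 19 of them were at 0 in every epithelial library.

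The 3 members called lower in epithelium were simple keratins. Krt19, a type I keratin of simple and some basal epithelia, was 1.46, 4.77, 9.14, 12.4 and 10.7 normalized counts in the stroma of O1, O2, O3, Y1 and Y3 and ran from 0 to 0.692 in epithelium. Krt8 was 2.16, 0.616, 2.18, 4.23 and 1.38 in the same stromal libraries, and was at 0 in 7 of 9 epithelial libraries, with 1 count in O1 and 8 counts in Y3. Krt7, a keratin of ducts and of the mesothelium, was 2.28, 0.904, 3.79, 5.26 and 3.27 in stroma and ran from 0 to 0.943 in epithelium. Krt19 and Krt8 did not overlap between the layers, whereas Krt7 of the O2 stroma lay just inside the epithelial range. The log2 fold changes were -4.50 ± 0.46 for Krt19, -5.19 ± 0.85 for Krt8 and -2.56 ± 0.48 for Krt7 (edgeR adjusted p = 6.56e-08, 3.07e-05 and 1.23e-04). The estimate of Krt8 was -7.40 without Y3, which holds 8 of its 9 epithelial counts, and -4.56 without Y1. Krt18, the partner of Krt8, did not pass the filter and was 0, 1.40, 0.689, 0.671 and 1.85 in stroma and 0 to 0.417 in epithelium.

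Markers of the mesothelium, the simple epithelium that covers the outer surface of organs, moved with these genes. Msln, Upk3b, Lrrn4 and Wt1 summed to 6.83, 10.2, 38.4, 54.1 and 58.0 in the stroma of O1, O2, O3, Y1 and Y3 and to 0.207 to 2.07 in epithelium, and the 3 that were tested were all lower in every epithelial library than in every stromal one. The stroma of O1 and O2, with the lowest sums, also held the lowest Krt19 and Krt7, but Krt8 did not follow that order, since Y3 had the highest sum and a Krt8 of 1.38, below the 2.16 of O1. Markers of thyroid, airway and gastric columnar epithelium summed to 0.698 to 6.13, 0.292 to 32.9 and 1.31 to 4.49 in stroma, with the airway value of 32.9 in O3 alone. In epithelium these sums were 0 to 1.73, 0.346 to 6.66 and 0 to 1.72. Among the Merkel cell markers tested, Isl1 (log2 fold change -5.82) and Piezo2 (-1.24) were lower in epithelium and Sox2 (5.56) was higher. The part of these cells in the stromal simple keratins was not tested.

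The remaining 30 members did not pass the filter in the comparison of the layers. They comprised 16 type I and 14 type II genes, of which 12 were hair and nail and 8 root sheath keratins. Their highest epithelial value was 1.89 normalized counts, for Krt90, and their highest stromal value 3.40, for Krt222. In the 4 epithelial libraries with F or M codes, 18 of the 30 were at 0. Without the filter, 8 of the 30 were called lower in epithelium by edgeR (Krt9, Krt18, Krt26, Krt33a, Krt73, Krt87, Krt88 and Krt222) and none higher. Of all 49574 genes tested in that run, 8428 were called lower and 5598 higher. Krt18 and Krt222 were also called lower when O1 was left out, and Krt9 when O3 was. For the other 22 no difference was detected.

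The start of transcription was read for the members with a RefSeq promoter entry (GRCm38.p6) that lay within 100 bases of the annotated start, which 33 keratin genes had. The letters ATAAA, which the TATA box sequence TATAAA contains, were searched on the strand of the gene between 40 and 20 bases before the start. They occurred in 60.6% of the 33 and 72.7% of the 11 tested between the layers, against 3.78% of all 32851 promoters listed. Other forms of the box were not searched. The letters CACCC, on either strand (GGGTG on the other), occurred in the 250 bases before the start in 75.8% of the 33, 81.8% of the 11 and 52.0% of all promoters. The 2 motifs share no letters in a row that would let one count as the other. The 60 bases before the start are printed for the 11 tested members, 5′ to 3′ on the strand of the gene, which is the minus strand for all of them, with ATAAA in capitals where it fell in that window.
Krt13 (chr11:100121567-100121626): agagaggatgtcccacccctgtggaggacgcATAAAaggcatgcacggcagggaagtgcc
Krt23 (chr11:99493121-99493180): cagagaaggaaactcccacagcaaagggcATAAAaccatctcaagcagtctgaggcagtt
Krt32 (chr11:100088270-100088329): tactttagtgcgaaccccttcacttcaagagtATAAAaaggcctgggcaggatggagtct
Krt10 (chr11:99389365-99389424): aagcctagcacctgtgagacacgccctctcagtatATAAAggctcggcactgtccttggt
Krt5 (chr15:101712906-101712965): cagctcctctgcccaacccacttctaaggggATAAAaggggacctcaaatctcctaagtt
Krt75 (chr15:101573905-101573964): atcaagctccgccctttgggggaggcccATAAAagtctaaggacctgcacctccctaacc
Krt76 (chr15:101892921-101892980): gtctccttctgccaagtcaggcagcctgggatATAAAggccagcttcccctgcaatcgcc
Krt78 (chr15:101954288-101954347): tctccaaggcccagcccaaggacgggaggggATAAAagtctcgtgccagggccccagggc
The 3 without it in that window were the following.
Krt36 (chr11:100105627-100105686): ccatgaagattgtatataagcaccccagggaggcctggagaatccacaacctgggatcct
Krt42 (chr11:100269952-100270011): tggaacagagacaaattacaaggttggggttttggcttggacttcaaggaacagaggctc
Krt79 (chr15:101940325-101940384): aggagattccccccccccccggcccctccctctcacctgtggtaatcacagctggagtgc
The 8 with ATAAA include Krt13, Krt5 and Krt78 from the upper end of the order as well as Krt75 and Krt76 from its lower end, and Krt10, which was not called between the layers. The 3 without it (Krt36, Krt42 and Krt79) had epithelial levels of 0.34, 0.269 and 0.382 per kb. The split is not one of promoters with and without a TATA box. Among the printed matches, T precedes ATAAA in Krt10, Krt32 and Krt76 only, and Krt36 carries the letters tatataag, which were not counted. A match is a description of the letters and is not evidence of use.

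Genes whose products work with keratins were listed as well. Of 12 proteins that link keratin filaments to desmosomes and other structures, 8 were higher in epithelium, where 26.1% of all genes tested were higher and 30.1% lower, among them desmoplakin (Dsp, 7.24 ± 0.51), plakophilin 1 (Pkp1, 7.23 ± 0.41) and envoplakin (Evpl, 6.83 ± 0.74) as log2 fold changes. Plectin (Plec, -2.24 ± 0.22), dystonin (Dst, -2.08 ± 0.21) and plakophilin 2 (Pkp2, -3.05 ± 0.69) were lower, and Tchp was not called. Of 10 transcription factors known to act on squamous keratin genes, 10 were higher in epithelium, from 2.65 for Elf3 to 7.62 for Ehf, with Trp63, the master factor of the basal layer, at 3.50 ± 0.29. Of 15 other intermediate filament genes, 8 passed the filter: the lamins Lmna, Lmnb1 and Lmnb2 were higher in epithelium, and desmin (Des, -4.53 ± 0.25), synemin (Synm, -4.13 ± 0.18), nestin (Nes, -2.44 ± 0.25) and vimentin (Vim, -1.80 ± 0.19) were lower. Desmin, synemin, plectin and dystonin belong to the muscle cytoskeleton too, and the skeletal muscle markers above moved the same way. The part of muscle in these differences was not tested.

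The third question was whether keratin expression changed with age in epithelium. No member was called. Of 15859 genes tested in the 9 epithelial libraries in a model that holds the code form constant, 0.0126% were called in either direction, and of the 23 keratin genes tested 0 were called by the quasi-likelihood test of edgeR after Benjamini-Hochberg adjustment. At an unadjusted p under 0.05 there were 3 keratin genes, where 3.21% of all genes tested passed, and DESeq2 had 5 at that unadjusted level and called 0 of the 16 keratin genes to which it gave an adjusted p (7 received none). The sign was negative, lower in aged mice, for 15 members and positive for 8, with a median log2 fold change of -0.17 beside 0.00 over all genes. Other marker lists leaned too: 6 of 6 squamous markers were lower in aged mice (median -0.16), as were 6 of 6 fibroblast markers (median -0.33, 2 of them with every aged value below every young one) and 12 of 12 skeletal muscle markers (median -1.15), whereas 2 of 5 smooth muscle markers were, and none of these was called. Their part in the keratin estimates was not tested. No member had all aged values above or all below the young ones, where 0.668% and 0.643% of genes did.

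**Figure D4:**
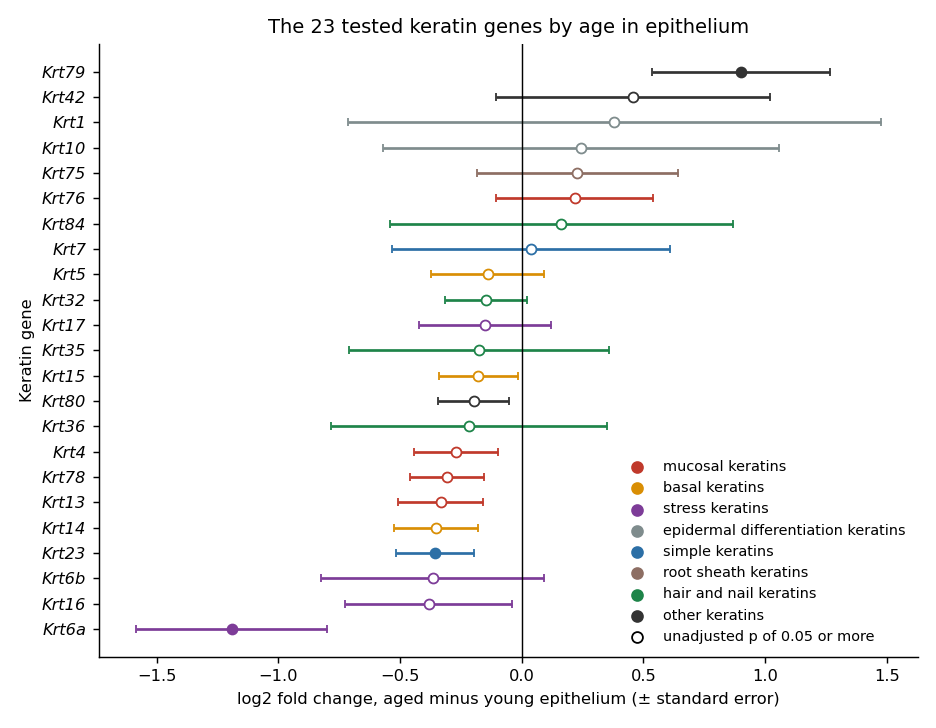
Log2 fold change of the 23 keratin genes tested by age in epithelium (x axis, aged minus young, bars of 1 standard error), coloured by class, with filled circles where the unadjusted p was under 0.05. Krt6a (-1.19), Krt23 (-0.36) and Krt79 (0.90) are filled, and no member passed the adjusted threshold.

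Krt6a had the largest estimate. On the scale of the 9 epithelial libraries it was 11.97, 19.2, 28.9, 7.45 and 5.15 normalized counts in aged O1, O2, O3, OF5 and OM8, and 57.8, 22.6, 19.3 and 18.7 in young Y1, Y3, YF5 and YM4. Y1 was the highest and the ages overlapped, since O2 and O3 lay within the young range. The log2 fold change was -1.19 ± 0.39, with an unadjusted p of 0.0184 and an adjusted p above 0.99. The estimate was -1.01 in the 5 mice with both layers and -1.56 in the 4 mice with F or M codes (adjusted p above 0.99 and 0.272). Its sign was the same in 17 of 17 alternatives, from -1.57 to -0.82, and its lowest adjusted p was 0.00743, in the run without a filter on low counts. Its near copy Krt6b had an estimate of -0.37 ± 0.46, at 3.57 to 22.7 in aged and 8.43 to 22.4 in young epithelium.

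The other 2 members under an unadjusted p of 0.05 were Krt79 and Krt23. Krt79 stood at 1.73, 1.33, 1.40, 1.79 and 1.98 in aged O1, O2, O3, OF5 and OM8 and 0.742, 0.524, 2.46 and 1.23 in young Y1, Y3, YF5 and YM4, with YF5 above every aged value. Its log2 fold change was 0.90 ± 0.37 (unadjusted p = 0.0242), and it rests on 4 to 10 counts in each library with an F or M code. Krt23 was 53.5, 74.7, 62.9, 45.0 and 30.3 in the aged mice and 68.7, 72.3, 68.2 and 49.1 in the young ones, listed in the same order, with OM8 the lowest and O2 the highest. Its log2 fold change was -0.36 ± 0.16 (unadjusted p = 0.0389), and -0.14 in the 5 mice with both layers.

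Several abundant members had estimates below 0, none of them called. Krt13 was at -0.33 ± 0.17, Krt4 at -0.27 ± 0.17, Krt78 at -0.31 ± 0.15 and Krt14 at -0.35 ± 0.17, and an interval of 2 standard errors on either side ran from -0.68 to 0.02 for Krt13, from -0.61 to 0.08 for Krt4, from -0.61 to -0.0036 for Krt78 and from -0.70 to -0.0096 for Krt14, before any adjustment for the number of genes tested. Although their intervals leave out 0, Krt78 and Krt14 did not pass an unadjusted p of 0.05 (0.0575 and 0.0540 by the edgeR test). In the 5 mice with both layers, the estimates were -0.055 for Krt13, -0.0087 for Krt4, -0.045 for Krt78 and -0.03 for Krt14. In the 4 mice with F or M codes they were -0.61, -0.53, -0.57 and -0.70, with adjusted p of 0.563 to 0.726. Krt5 (-0.14 ± 0.23) and Krt15 (-0.18 ± 0.16) changed sign between these subsets. Krt1 and Krt10 were at 0.38 ± 1.10 and 0.24 ± 0.81, at 1.44 and 1.15 in the 5 mice and at -0.90 and -1.02 in the 4 mice, so no direction could be given for this pair. The share of Krt4 and Krt13 in the family's level was 92.9% ± 0.422 in aged and 93.1% ± 0.73 in young epithelium, and the basal keratins held 4.20% ± 0.349 and 3.88% ± 0.351. None of the linking proteins, regulators or other intermediate filament genes was called by age either.

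Keratin levels differed more with the form of the mouse code than with age. In the same model of the 9 epithelial libraries, 10 of the 23 tested members were called lower in the 4 mice with F or M codes and 0 higher, where 7.3% of the genes tested were called lower and 6.73% higher. This comparison was chosen after the data were seen. On the scale of the 9 epithelial libraries, Krt13 averaged 15771 ± 1629.8 normalized counts in the 5 mice with both layers and 8015 ± 2173 in the 4 others, a log2 difference of -1.04 ± 0.18 (edgeR adjusted p = 0.00122). Krt17 averaged 5.45 ± 1.54 and 1.04 ± 0.141, a difference of -2.39 ± 0.36 (edgeR adjusted p = 5.33e-04), and the 2 sets did not overlap for either gene. Krt17 rests on 3, 5, 3 and 4 counts in OF5, OM8, YF5 and YM4, near the detection limit of 3 counts. The other 8 were Krt16 (-1.83), Krt14 (-1.15), Krt5 (-1.03), Krt15 (-0.93), Krt4 (-0.88), Krt32 (-0.74), Krt78 (-0.62) and Krt23 (-0.54). Krt16 likewise rests on 1, 4, 9 and 6 counts in OF5, OM8, YF5 and YM4. Krt80 was at 0.00 ± 0.15, Krt1 at 0.35 ± 1.09 and Krt10 at 0.55 ± 0.82, and none of the 3 was called.

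**Figure D5:**
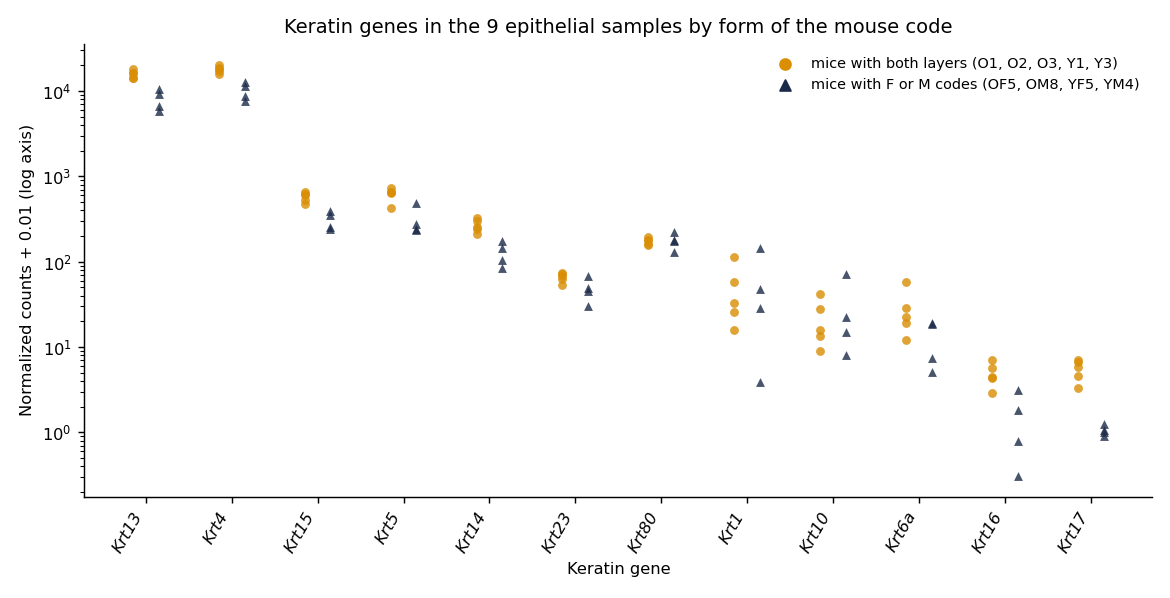
Normalized counts plus 0.01 (log axis) of 12 keratin genes in epithelium, with circles for the 5 mice that have both layers and triangles for the 4 mice with F or M codes, 1 point per mouse. Krt13, Krt4, Krt15, Krt14 and Krt17 separate the 2 sets, while Krt80, Krt1 and Krt10 overlap.

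The shares of the classes in the family did not all move alike. Keratin genes took 14.9% ± 0.907 of protein-coding counts in the 5 mice with both layers and 5.95% ± 0.98 in the 4 others. Krt4 and Krt13, which make up most of the family's sum, held 93.3% ± 0.373 and 92.7% ± 0.57 of it, and basal keratins 4.14% ± 0.376 and 3.95% ± 0.381. The shares of several minor classes were higher in the 4 mice on average. A share can rise with no rise of its genes, since Krt4 and Krt13, which lead the sum, were lower in these mice. Between the forms Krt80 was not called, and Krt23, a simple keratin, was called lower (-0.54). The other keratins (led by Krt80) held 0.153% ± 0.00394 and 0.296% ± 0.0547, and their ranges did not overlap. Epidermal differentiation keratins held 0.118% ± 0.0796 and 0.258% ± 0.208, and simple keratins 0.235% ± 0.0356 and 0.316% ± 0.0663. Stress keratins went the other way, at 0.136% ± 0.0477 in the 5 mice and 0.105% ± 0.0293 in the 4 others. The ranges of the epidermal differentiation, simple and stress shares overlapped between the forms. The summed squamous markers were 1710 to 1978 in the 5 mice and 950 to 1340 in the 4 others, and the ribosomal RNA share and the protein-coding depth given above divide the same libraries. The labels do not say what the code form stands for, its part in these differences was not tested, and the form cannot be told apart from anything else that the 4 libraries share. Each form holds both ages, 3 aged and 2 young mice in one and 2 aged and 2 young in the other, so the comparison by age was made within forms.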

How the data were processed

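Bulk mRNA libraries from 14 samples of 9 mice were analysed. For each sample the authors deposited 1 table of raw, unnormalized counts per gene. Per the paper's methods, reads were aligned to GRCm38.p6 with Rsubread and summarized per gene with featureCounts. The submitters' processing notes also name bcl2fastq. The annotation release and the settings for strand and multi-mapping reads are not given in the sources used here. Positions and lengths came from GENCODE M21, and 53180 of the 55291 symbols were found there.

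The tests were robust quasi-likelihood fits in edgeR 4.0.16 under R 4.3.3, after TMM scaling and a filterByExpr filter set to a minimum count of 10, with Benjamini-Hochberg adjustment over all genes and a threshold of 0.05. Layers were compared over 14 samples, and ages over 9 epithelial samples, where code form entered as a covariate. The authors' methods name DESeq2 for the comparison of layers, and DESeq2 1.42.0 was run here as an alternative. Levels per kb divide normalized counts by the length of all exons joined. The fits were tested on simulated counts.

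The 5 mice with both layers are paired by the mouse code in their labels, which differs between layers only in a final E or S, and deviations of the layers of the same mouse correlated at r = 0.029 to 0.154 across genes. Aged and young mice that share a number in their codes are different animals, and their epithelial deviations correlated at 0.253 to 0.353 over 3 such pairs. The mice of each such pair also share the form of their code, which these deviations still contain. The values therefore cannot show what a shared number adds. Since the labels name 1 mouse per sample and layer, p-values measure the spread between these samples. No library pair differed by less than sampling noise.

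Genes were named by a rule: the 12 members with the highest level per kb in epithelium, every member called lower in epithelium and every member with an unadjusted p under 0.05 by age. Further members named in the text were chosen after their values were seen. The members and lists were chosen with earlier results of these data known. Alternatives were other filters, scalings, covariates, sample subsets, mouse as a block and each mouse left out. The single-cell, organoid and imaging data of the study were not analysed here.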

Additional observations from a re-analysis of the deposited data

Results flagged for a closer look

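Within groups of 4 or 5 samples, 48 sets of values of the named members were examined for a sample far from the others, and 2 were found, where chance gives about 1 in 20. Both concern Krt8 in epithelium. Among the 5 aged samples, O1 held 0.0291 normalized counts (1 count) and the other samples were at 0. Among the 4 young samples, Y3 held 0.262 normalized counts (8 counts) and the others were at 0. Since all other values of both sets are exactly 0, any single count would have stood apart in this way. The stromal samples of these 2 mice held 2.16 and 1.38.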

How the results depend on the processing

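Of 264 estimates of the named members between the layers under other settings, 257 kept their direction and side of the threshold, 6 gained a call (Krt1 and Krt10, each with mouse as a block, without mouse O2 and without the O2 stroma, the last of these chosen after seeing the data) and 1 lost it (Krt79 with mouse as a block). The replicate block of mouse gave 18 higher and 3 lower, as many as without it, but not the same members: Krt1 and Krt10 gained a call, and Krt75 and Krt79 lost theirs although their estimates grew. Folds of called members moved by over 1.5 times in 33 estimates with a block or with samples left out, in 31 of them to a larger difference. Besides those given with each member, log2 fold changes under the block were 8.15 for Krt78, 7.65 for Krt15, 7.64 for Krt5, 6.98 for Krt32, 6.80 for Krt14, 6.70 for Krt17, 3.67 for Krt35, 3.55 for Krt42, 3.50 for Krt16 and 3.15 for Krt76, and Krt42 was at 3.62 without Y3. Without a filter on low counts, 11 of 54 members were called lower, adding 8, where 8428 of all 49574 genes tested were. With at least 10 counts in every sample, 8 members were tested and 8 were called, all higher and 0 lower. Leaving out each mouse gave 16 to 18 higher calls and 3 to 5 lower calls (19 to 21 in all), with 5 lower without O1, which added Krt18 and Krt222. With the longest transcript as length, the ratio of type I to type II was 1.06 and that of Krt13 to Krt4 was 1.08.

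By age, 205 of 219 estimates kept direction and side. Without a filter, 1 member (Krt6a, -1.23, adjusted p = 0.00743) was called, and leaving out any mouse gave 0 calls. The replicate block on the number in the mouse code changed no call by age. The cause of the sign changes was not tested. With no covariate the estimates that turned were 0.018 for Krt15, 0.11 for Krt5 and -0.037 for Krt10, in the 5 mice with both layers 0.17 for Krt15 and 0.32 for Krt5, and in the 4 mice with F or M codes -0.90 for Krt1 and -1.02 for Krt10. Krt5 was at 0.18 with the replicate block. With 1 mouse left out, Krt5 ran from -0.38 (without Y3) to 0.13 (without YM4), Krt1 from -0.16 (without Y1) to 1.75 (without YM4) with -0.042 without O2, and Krt10 from -0.24 (without Y1) to 1.17 (without YM4) with -0.077 without O2. For the form of the code, Krt80 turned to 0.053 with upper quartile scaling and 0.035 with DESeq2, and 9 and 12 members were called lower. The low depth of the 4 libraries with F or M codes limits every member under about 1.25 normalized counts.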
